A study of Mus musculus with 6 samples.

Results

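The 10 genes described here are regulators and surface proteins of the primitive endoderm together with its endocytic receptor *Cubn*. They are *Gata4*, *Gata6*, *Sox17*, *Sox7*, *Cubn*, *Amn*, *Lrp2*, *Dab2*, *Lama1* and *Pdgfra*, 10 of the 55385 genes in a table of read counts per gene. The genes were taken by name and chosen with the counts of these same 6 libraries in view, so their levels and fold changes are given as a description, without a test. Stranded polyA RNA was sequenced from mouse embryonic stem cells (mESCs) of 3 genotypes with 2 libraries each. The genotypes were wild-type, a heterozygous deletion of the *Wnt6* anchor, in which 1 allele was deleted, and a homozygous deletion, in which both were. The anchor is the stretch of DNA at *Wnt6* that takes part in a long-range Polycomb loop, and the comparisons ask which genes change when it is removed. The paper writes of genes, in the plural, that the deletion includes, so *Wnt6* is not taken as the only gene lost. All 3 genotypes are G4 mESCs, a hybrid line of the 129/Sv and C57BL/6 strains, and all were grown with LIF on CD1 feeder cells, with no other treatment named. The deletions were made with CRISPR-Cas9 and screened as individual clones. The number of clones behind each genotype is not given in the sources used here, so genotype and clone cannot be told apart.

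The primitive endoderm is the sheet of cells that separates from the pluripotent epiblast before implantation and later forms the visceral and parietal endoderm of the yolk sac. The transcription factors GATA6, SOX17, GATA4 and SOX7 drive this choice, and FGF and PDGF signals support it. Visceral endoderm takes up nutrients through cubilin and megalin, large receptors encoded by *Cubn* and *Lrp2*. Cubilin has no membrane anchor of its own and is carried to the surface by amnionless, the product of *Amn*, while the adaptor DAB2 links these receptors to clathrin. mESCs in LIF keep the pluripotent state but can also give rise to a few cells of this lineage.

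Of the 9 members with enough counts to be tested, *Cubn* stood furthest from wild-type in heterozygous cells, and the other genes of its receptor complex differed there by less. To set the genes of the complex side by side, the 250 bases upstream of the RefSeq start are printed for *Cubn*, for its membrane partner *Amn*, for its co-receptor *Lrp2* and for the adaptor *Dab2* (GRCm38, written 5′ to 3′ on the strand of the gene). CG dinucleotides are in capitals, chosen after the windows were seen, because their number differs between them.
Cubn: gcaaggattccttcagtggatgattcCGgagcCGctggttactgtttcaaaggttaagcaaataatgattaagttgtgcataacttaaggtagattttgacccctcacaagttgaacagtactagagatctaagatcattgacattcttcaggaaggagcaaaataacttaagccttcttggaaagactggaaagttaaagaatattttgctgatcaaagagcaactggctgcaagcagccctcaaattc
Amn: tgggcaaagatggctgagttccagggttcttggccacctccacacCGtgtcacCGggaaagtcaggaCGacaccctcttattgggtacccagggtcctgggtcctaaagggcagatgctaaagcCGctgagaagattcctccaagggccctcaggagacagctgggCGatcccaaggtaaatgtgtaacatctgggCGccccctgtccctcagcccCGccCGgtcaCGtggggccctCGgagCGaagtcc
Lrp2: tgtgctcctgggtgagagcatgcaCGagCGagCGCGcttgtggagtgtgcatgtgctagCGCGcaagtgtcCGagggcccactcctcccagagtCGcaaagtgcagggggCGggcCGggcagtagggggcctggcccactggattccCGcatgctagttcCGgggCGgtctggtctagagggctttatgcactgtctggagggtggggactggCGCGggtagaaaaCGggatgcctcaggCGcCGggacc
Dab2, first start: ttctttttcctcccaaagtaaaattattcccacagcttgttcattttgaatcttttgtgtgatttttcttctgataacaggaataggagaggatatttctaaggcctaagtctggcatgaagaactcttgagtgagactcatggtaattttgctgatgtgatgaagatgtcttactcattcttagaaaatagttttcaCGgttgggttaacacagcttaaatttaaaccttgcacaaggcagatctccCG
Dab2, second start: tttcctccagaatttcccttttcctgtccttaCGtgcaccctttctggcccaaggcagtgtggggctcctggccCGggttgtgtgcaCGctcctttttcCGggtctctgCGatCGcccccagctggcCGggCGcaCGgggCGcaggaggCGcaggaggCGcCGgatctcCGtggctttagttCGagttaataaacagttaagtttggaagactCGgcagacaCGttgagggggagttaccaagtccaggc

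The *Cubn* window (chr2:13491877-13492126, minus strand) held 2 CG dinucleotides and 39.6% G and C, with a ratio of observed to expected CG of 0.206. The *Lrp2* window (chr2:69586030-69586279, minus strand) held 18 CG dinucleotides at 66.4% G and C and a ratio of 0.685. The *Amn* window (chr12:111270846-111271095, plus strand) held 11 at 61.2% and 0.47. *Dab2* is listed with 2 starts, of which the first (chr15:6299539-6299788, plus strand) had 2 CG dinucleotides at 36.8% and 0.237, and the second (chr15:6386498-6386747, plus strand) had 17 at 60% and 0.757. The *Cubn* window and the first *Dab2* window are thus poor in CG, and the other 3 are richer than usual: over all 32851 windows of this length, the medians were 6 CG dinucleotides, 52.4% G and C and a ratio of 0.373. The GATA motif (AGATAA or TGATAA on either strand) was in 16.6% of all windows and was found once here, as TGATAA starting 179 bases before the first *Dab2* start. The SOX motif (ACAAT on either strand) was in 27.7% of all windows and in none of these 5. Such a match is a run of letters and not a measured binding site. The RefSeq start of *Cubn* lies upstream of its start in the GENCODE annotation used for positions below, which is base 13491813 on the minus strand. The *Lrp2* window instead reaches into the GENCODE gene, which starts at base 69586065 on the minus strand.

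The libraries held between 23813912 and 28964706 counts. A chosen floor of 3 counts in a library corresponded to between 0.102 and 0.131 CPM (counts scaled to a common library size with TMM factors). *Wnt6*, a gene at the deleted anchor, gave 11 and 13 reads in the wild-type libraries, 6 and 4 in the heterozygous pair and 0 and 0 in the homozygous pair. Reads are given in the order of the labels. Genes were tested when they had at least 10 counts in at least 2 libraries, which 16951 genes did, in 1 edgeR quasi-likelihood fit of the 3 genotypes. A gene is called higher or lower here when its log2 fold change is above 1 or below -1 and its Benjamini-Hochberg adjusted p over all tested genes is below 0.05. Of the 10 genes, 9 met the count minimum and *Sox17* did not. The methods state biological triplicates, while nothing in the labels says that the 2 libraries of a genotype came from separate cultures. The p-values therefore measure only the spread between these libraries, which may be technical.

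The transcription factors were low in every genotype. *Gata4*, which encodes a zinc finger activator of endoderm genes, lies on chromosome 14 (63198922 to 63271692, minus strand). It drew 51 and 56 reads from wild-type cells, 67 and 93 from heterozygous cells and 44 and 71 from homozygous cells. Both heterozygous libraries, at 2.69 and 3.49 CPM, lay above both wild-type libraries, at 1.73 and 2.19 CPM, while the homozygous libraries at 1.92 and 2.73 CPM overlapped both other genotypes. The fitted log2 fold change was 0.67 (SE 0.214) in heterozygous and 0.26 (SE 0.228) in homozygous cells against wild-type.

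*Gata6*, the earliest of the GATA factors in this lineage, lies on chromosome 18 (11052064 to 11085635, plus strand). It gave 25 and 14 reads in the wild-type pair of libraries, 27 and 42 in the heterozygous pair and 14 and 18 in the homozygous pair. The heterozygous libraries (1.08 and 1.58 CPM) were above all 4 others, which lay between 0.548 and 0.85 CPM. The log2 fold change was 0.91 (SE 0.322) in heterozygous and -0.12 (SE 0.377) in homozygous cells against wild-type, and homozygous cells were at -1.03 (SE 0.336) against heterozygous cells, past both thresholds. This call rested on single libraries: the log2 fold change was -0.73 without heterozygous replicate 2 and -0.95 without homozygous replicate 1, and neither was called.

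*Sox17*, an HMG-box factor of extraembryonic and definitive endoderm, lies on chromosome 1 (4490931 to 4497354, minus strand). It was counted 5 and 0 times in wild-type cells, 9 and 9 times with the heterozygous deletion and 3 and 1 times with the homozygous deletion. The heterozygous libraries, at 0.361 and 0.338 CPM, were the highest of the 6, at a depth where 3 counts are already 0.102 CPM or more. The homozygous libraries did not exceed 3 counts, and against this floor the heterozygous level was at least 2.84-fold higher. Against wild-type, a fit over all genes with a count gave the heterozygous cells a log2 fold change of 1.88 (SE 0.738).

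*Sox7*, the related HMG-box factor of the parietal endoderm (chromosome 14, 63943673 to 63950732, plus strand), stayed nearly level. It gave 26 and 22 reads in the wild-type pair of libraries, 21 and 22 in the heterozygous pair and 23 and 28 in the homozygous pair. The CPM values lay between 0.826 and 1.08 in all 6 libraries, with the homozygous pair highest and the heterozygous pair lowest. The log2 fold changes, -0.07 (SE 0.309) in heterozygous and 0.25 (SE 0.299) in homozygous cells against wild-type, were smaller than their standard errors. Summed over the 4 transcription factors, the level was 3.64 and 3.60 CPM in the wild-type pair, 4.98 and 6.23 in the heterozygous pair and 3.67 and 4.53 in the homozygous pair. In bulk RNA such as this, fewer cells of a type and less RNA per cell cannot be told apart.

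**Figure D1:**
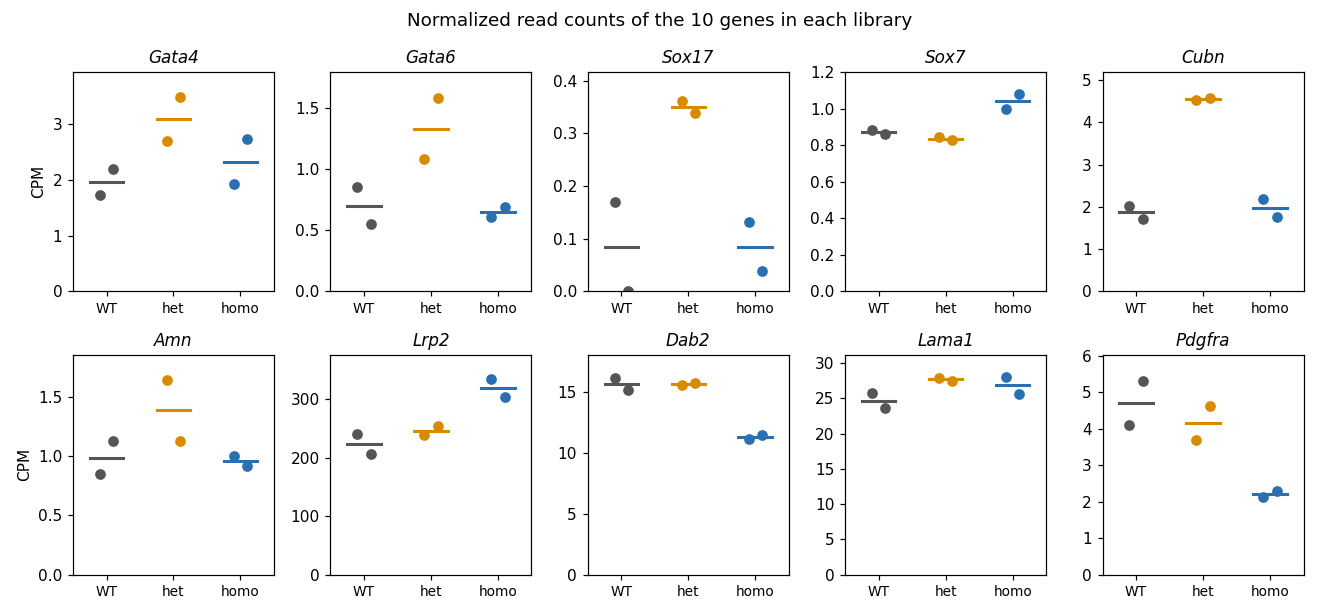
Each panel plots CPM (counts scaled to a common library size with TMM factors, axis from 0) of a gene in the 2 wild-type (WT), 2 heterozygous (het) and 2 homozygous (homo) libraries, with points for libraries and a bar for the mean. *Cubn* is at 4.54 and 4.58 CPM in heterozygous libraries and at most 2.18 CPM elsewhere, *Lrp2* is highest in homozygous libraries, and *Dab2* and *Pdgfra* are lowest there.

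Among the endocytic genes, *Cubn* had the widest spread between genotypes, and *Amn* was also highest in a heterozygous library. *Cubn* (ENSMUSG00000026726, chromosome 2, 13276338 to 13491813, minus strand) drew 59 and 44 reads from wild-type cells, 113 and 122 from heterozygous cells and 50 and 46 from homozygous cells. The heterozygous libraries, at 4.54 and 4.58 CPM, stood above the wild-type libraries at 2.01 and 1.72 CPM and the homozygous libraries at 2.18 and 1.77 CPM, which overlapped each other. Heterozygous cells were 2.43-fold above wild-type, a log2 fold change of 1.28 (SE 0.176), and homozygous cells were at 0.07 (SE 0.21) against wild-type and at -1.21 (SE 0.179) against heterozygous cells. An antisense transcript, *Gm13270*, shares 368 exon bases with *Cubn* and had between 2 and 7 counts per library, fewest in a heterozygous and a homozygous library.

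*Amn*, whose product anchors cubilin in the membrane (chromosome 12, 111271095 to 111276426, plus strand), was counted 25 and 29 times in wild-type cells, 41 and 30 times with the heterozygous deletion and 23 and 24 times with the homozygous deletion. The heterozygous libraries, at 1.65 and 1.13 CPM, were spread widely and the lower of them met the higher wild-type library. The log2 fold change was 0.49 (SE 0.289) in heterozygous and -0.04 (SE 0.315) in homozygous cells against wild-type.

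*Lrp2*, which encodes megalin (chromosome 2, 69424340 to 69586065, minus strand), was by far the most abundant member. It gave 7095 and 5284 reads in the wild-type pair of libraries, 5916 and 6760 in the heterozygous pair and 7683 and 7915 in the homozygous pair. Homozygous libraries, at 335 and 304 CPM, lay above the wild-type libraries at 241 and 207 CPM and the heterozygous libraries at 238 and 254 CPM, which overlapped. The log2 fold change was 0.51 (SE 0.0605) in homozygous and 0.13 (SE 0.0608) in heterozygous cells against wild-type, and 0.38 (SE 0.0604) between the 2 deletions.

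*Dab2*, the clathrin adaptor of these receptors (chromosome 15, 6299788 to 6440712, plus strand), moved in the opposite direction to *Lrp2*. It drew 474 and 387 reads from wild-type cells, 385 and 419 from heterozygous cells and 254 and 296 from homozygous cells. The homozygous libraries, at 11.1 and 11.4 CPM, were below all 4 others, which lay between 15.1 and 16.1 CPM. The log2 fold change of homozygous cells was -0.48 (SE 0.0872) against wild-type and -0.47 (SE 0.088) against heterozygous cells.

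The genes of the receptor complex therefore did not keep a fixed ratio. *Cubn* counts were 0.832% and 0.833% of *Lrp2* counts in the wild-type pair, 1.91% and 1.80% in the heterozygous pair and 0.651% and 0.581% in the homozygous pair. *Dab2* counts were 6.68% and 7.32% of *Lrp2* counts in the wild-type pair, 6.51% and 6.20% in the heterozygous pair and 3.31% and 3.74% in the homozygous pair. The 3 genotypes did not overlap in the first ratio, with the heterozygous pair highest, and in the second the homozygous pair was lowest. In homozygous cells against wild-type *Cubn* was at 0.07 and *Lrp2* at 0.51 on the log2 scale. Relative to *Amn* counts, *Cubn* counts were 236% and 152% in the wild-type pair and 217% and 192% in the homozygous pair, which overlapped. In the heterozygous pair they were 276% and 407%.

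*Lama1*, the laminin chain of the basement membrane laid down by this endoderm (chromosome 17, 67697259 to 67822647, plus strand), varied little. It was counted 758 and 604 times in wild-type cells, 696 and 732 times with the heterozygous deletion and 644 and 668 times with the homozygous deletion, between 23.6 and 28.1 CPM. The log2 fold changes were 0.16 (SE 0.0716) in heterozygous and 0.12 (SE 0.0724) in homozygous cells against wild-type.

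*Pdgfra*, the PDGF receptor that marks primitive endoderm in the blastocyst and is also high in fibroblasts, lies on chromosome 5 (75152292 to 75198215, plus strand). It gave 121 and 136 reads in the wild-type pair of libraries, 92 and 123 in the heterozygous pair and 49 and 60 in the homozygous pair. The homozygous libraries, at 2.14 and 2.30 CPM, were below all 4 others, and the heterozygous libraries at 3.69 and 4.62 CPM overlapped the wild-type libraries at 4.12 and 5.32 CPM. Homozygous cells were 2.10-fold below wild-type, a log2 fold change of -1.07 (SE 0.185), and at -0.90 (SE 0.191) against heterozygous cells, while heterozygous cells were at -0.17 (SE 0.162) against wild-type. The call against wild-type depended on wild-type replicate 2, without which the log2 fold change was -0.88 and not called.

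Per kilobase of exon, wild-type levels ran from 13.4 ± 1.46 CPM per kb for *Lrp2* (mean ± SD, n = 2) down to 0.0178 ± 0.0252 for *Sox17*. *Lama1* (2.55 ± 0.157) and *Dab2* (2.13 ± 0.094) followed *Lrp2*. *Amn* (0.539 ± 0.109), *Gata4* (0.503 ± 0.0828) and *Pdgfra* (0.471 ± 0.0851) did not differ beyond their spread. *Sox7* came next at 0.264 ± 0.005, above *Cubn* (0.125 ± 0.0135) and *Gata6* (0.107 ± 0.0329), which did not differ beyond their spread. In heterozygous cells *Cubn*, at 0.305 ± 0.00201 CPM per kb, lay above *Sox7* at 0.253 ± 0.00372, and in homozygous cells it was again below it, at 0.132 ± 0.0197 against 0.315 ± 0.0153. *Lrp2* was above the 86.2 percentile of genes with a count in wild-type cells, *Gata4* at the 50.8 percentile and *Cubn* at the 33.8 percentile, all per kilobase.

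**Figure D2:**
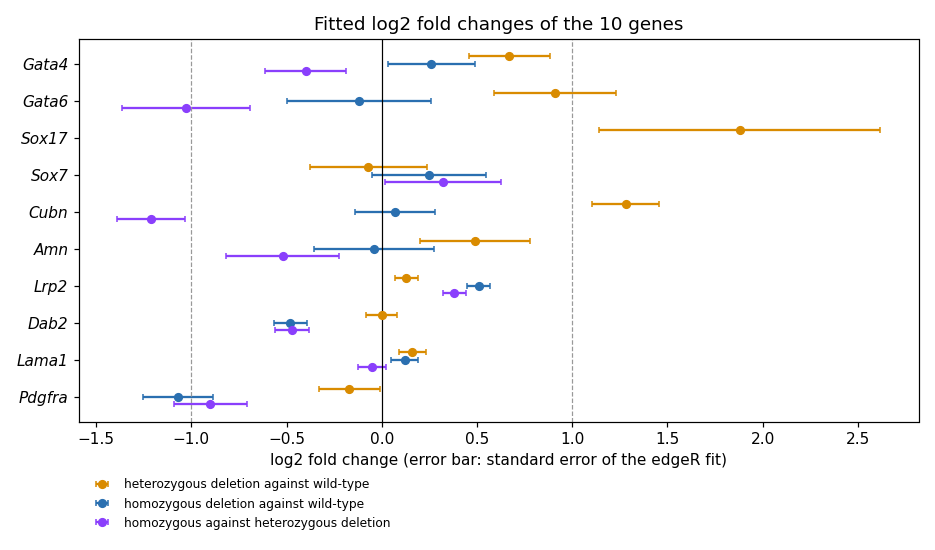
Points give the fitted log2 fold change of each gene (horizontal axis) in the 3 comparisons and bars its standard error, with dashed lines at -1 and 1. *Cubn* lies at 1.28 in heterozygous cells against wild-type and at -1.21 between the deletions, *Pdgfra* at -1.07 in homozygous cells against wild-type, and *Sox17* is drawn for heterozygous cells against wild-type alone because its homozygous libraries held at most 3 counts.

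The 3 comparisons share libraries, so they are set side by side and not counted as separate evidence. In heterozygous cells against wild-type, 1 member (*Cubn*) was called higher and 0 were called lower, where 0.0413% of all tested genes were called higher and 0.124% lower. In homozygous cells against wild-type, 1 member (*Pdgfra*) was called lower, against 1.86% of tested genes called lower and 0.271% called higher. In homozygous against heterozygous cells, 2 members (*Gata6* and *Cubn*) were called lower, against 0.897% of tested genes lower and 0.496% higher. With the counts scaled by library totals alone, the split over all tested genes in this last comparison was 66 higher and 213 lower, compared with 84 and 152. The split also moved without homozygous replicate 2, to 90 higher and 297 lower, and with DESeq2, to 27 and 38. Without a threshold on the fold change, 1 member passed the adjusted p in the first comparison, where 2.23% of tested genes passed higher and 2.91% lower. In the second, 3 members passed (*Lrp2* higher, *Dab2* and *Pdgfra* lower), where 10.9% of tested genes passed higher and 10.5% lower. In the third, 5 passed (*Lrp2* higher, and *Gata6*, *Cubn*, *Dab2* and *Pdgfra* lower), where 12.9% passed higher and 12.9% lower. These shares stand beside the members as background alone, since the members were chosen on the same counts.

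Over all 10 members the median log2 fold change was 0.32 in heterozygous cells against wild-type, with 7 above 0 and 3 below, and 0.02 in homozygous cells, with 5 on each side. Between the deletions it was -0.50, with 2 above 0 and 8 below, and the same with *Sox17* at its bound. Without *Sox17*, which was not tested, the medians of the tested members were 0.16, 0.07 and -0.47 in the same order. The medians of all tested genes were 0.000, -0.006 and -0.020. They stand as background alone, since the members were chosen on these counts.

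Whether the difference in *Cubn* extended along its chromosome was examined in the genes that start within 500 kb of its start, of which 5 of 15 were tested. For the counts at an unadjusted p below 0.05 given from here on, the background over all 16951 tested genes was 1278 higher and 1479 lower in heterozygous cells against wild-type, 2781 and 2730 in homozygous cells against wild-type, and 2988 and 3269 between the deletions. In heterozygous cells against wild-type edgeR and DESeq2 called 0 of them, with 0 higher and 1 lower at an unadjusted p below 0.05. Distances are in the direction of *Cubn* transcription, so that a negative one is upstream. *Trdmt1*, a tRNA methyltransferase at -52.9 kb, was at 0.11 on the log2 scale (SE 0.116, adjusted p 0.718), and *Rsu1*, at 220.4 kb, was at -0.09 (SE 0.0563, adjusted p 0.49). *St8sia6* was at 0.17 (SE 0.321, adjusted p 0.867) and *Gm37780* at 0.18 (SE 0.548, adjusted p 0.923), both from few counts. *Vim*, at -82.1 kb, encodes the intermediate filament of mesenchymal cells and drew 12719 and 11228 reads from wild-type cells, 8033 and 8203 from heterozygous cells and 4951 and 5613 from homozygous cells. It fell in both deletions, by 0.47 on the log2 scale in heterozygous cells (SE 0.041, adjusted p 4.61e-07) and by 1.01 in homozygous cells (SE 0.0418, adjusted p 7.91e-13). Thus no tested neighbour passed the thresholds in the direction of *Cubn* in heterozygous cells. Around the other 9 members, edgeR and DESeq2 called 0 of 62 tested genes within 500 kb in each comparison, with 7 higher and 8 lower at an unadjusted p below 0.05 in heterozygous cells against wild-type, 6 and 9 in homozygous cells against wild-type, and 11 and 13 between the deletions.

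**Figure D3:**
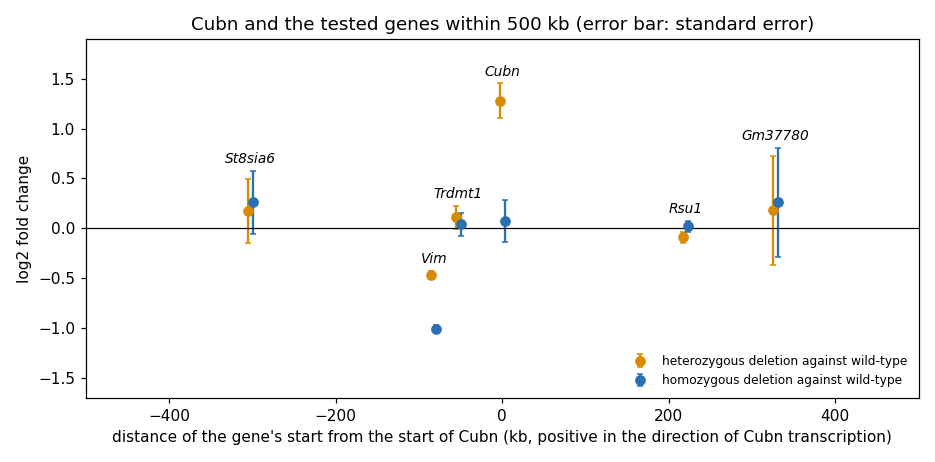
Fitted log2 fold changes against wild-type (vertical axis, bars for the standard error) are plotted for *Cubn* and the 5 tested genes within 500 kb, by the distance of their start from that of *Cubn* in kb. In heterozygous cells *Cubn* is at 1.28 and its neighbours lie between -0.47 (*Vim*) and 0.18 (*Gm37780*).

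The other genes of the lineage were taken from a list of 33 extraembryonic endoderm genes, of which 25 were tested. In heterozygous cells against wild-type, edgeR called 0 of them and DESeq2 0, with 5 higher and 1 lower at an unadjusted p below 0.05, and the median log2 fold change was 0.05. *Cited1*, a transcriptional co-regulator, passed the adjusted p at 0.64 (SE 0.151, adjusted p 0.0146), from 90 and 90 reads in the wild-type pair and 121 and 143 in the heterozygous pair. *Thbd*, the thrombomodulin gene of parietal endoderm, passed it at -0.74 (SE 0.0925, adjusted p 3.2e-05). In homozygous cells against wild-type 2 were called lower, *Thbd* at -1.35 (SE 0.1, adjusted p 5.8e-09) and the activin antagonist *Fst* at -1.0 (SE 0.102, adjusted p 4.19e-07), and the median was -0.02. *Fst* lay at the threshold: DESeq2 called 1 of the 25, *Thbd*, and *Fst* was also not called without wild-type replicate 2 or without homozygous replicate 2. *Thbd* counts went from 601 and 584 in wild-type to 297 and 369 in heterozygous and 206 and 209 in homozygous cells. How much feeder RNA enters the levels of *Thbd* and *Fst* was not tested.

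Between the deletions 0 of the 25 were called by edgeR or DESeq2, with 2 higher and 13 lower at an unadjusted p below 0.05 and a median of -0.29. The abundant members of the list encode basement membrane proteins that stem cells and fibroblasts also make: *Sparc* was at -0.28 (adjusted p 4.61e-05), *Lamc1* at 0.28 (adjusted p 7.86e-05) and *Lamb1* at -0.16 (adjusted p 0.00897) in homozygous cells against wild-type. Markers of visceral endoderm were uneven. The secreted products *Afp* and *Ttr* had at most 8 and at most 1 counts in a library, *Apoa4* and *Apoc2* had 0 in all 6, the factor *Hnf4a* had at most 2 and the antagonist *Cer1* at most 1. Other secreted products were detected, with 144 to 248 counts per library for *Apoa2*, 155 to 196 for *Trf*, 37 to 50 for *Apob* and 26 to 36 for *Rbp4*. In homozygous cells against wild-type *Apoa2* fell by 0.45 on the log2 scale (SE 0.111, adjusted p 0.00553) and *Trf* rose by 0.37 (SE 0.115, adjusted p 0.0276). The label of primitive endoderm stands here for the known roles of the 10 genes, and the counts do not show which cells they came from.

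Of 27 genes that work with the receptors in endocytosis, 26 were tested and edgeR and DESeq2 called 0 in each comparison. At an unadjusted p below 0.05, 6 were higher and 4 lower in heterozygous cells, 8 higher and 7 lower in homozygous cells against wild-type, and 3 higher and 10 lower between the deletions. The coat genes *Cltc* (0.07, adjusted p 0.413) and *Ap2m1* (0.05, adjusted p 0.642) showed small values in heterozygous cells, and *Ap2b1* was at 0.18 (adjusted p 0.0124). *Clcn5*, the endosomal chloride exchanger, rose in heterozygous cells by 0.49 on the log2 scale (SE 0.0555, adjusted p 1.09e-05). It also rose in homozygous cells against wild-type, by 0.24 (SE 0.0564, adjusted p 0.00468). *Lrp1*, the related receptor abundant in fibroblasts, fell by 0.37 in heterozygous (SE 0.0558, adjusted p 0.000271) and by 0.76 in homozygous cells (SE 0.0571, adjusted p 6.4e-09). *Gipc1*, whose product binds the tail of megalin, rose by 0.52 in homozygous cells against wild-type (SE 0.0623, adjusted p 3.46e-06). In heterozygous cells *Gipc1* fell by 0.26 (SE 0.0652, adjusted p 0.0237). *Lrp2* was at 0.51 in homozygous and 0.13 in heterozygous cells, so the 2 genes moved alike only in the former.

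Of 10 genes of the FGF and PDGF signals, edgeR called 0 in heterozygous cells against wild-type (1 higher and 3 lower at an unadjusted p below 0.05, 0 by DESeq2) and 1 lower in homozygous cells. This was *Pdgfrb*, the second PDGF receptor, at -1.30 (SE 0.106, adjusted p 1.68e-08), close to *Pdgfra* at -1.07. *Pdgfb*, a ligand, was at 0.52 in heterozygous (SE 0.0974, adjusted p 0.00238) and -0.47 in homozygous cells (SE 0.11, adjusted p 0.00386) against wild-type. *Fgf4*, the ligand that epiblast cells send to primitive endoderm, was at -0.12 in heterozygous (adjusted p 0.132) and 0.12 in homozygous cells (adjusted p 0.0542). *Fgfr1* was at 0.33 in homozygous cells (SE 0.0461, adjusted p 1.91e-05), and *Grb2* at -0.03 (adjusted p 0.709). Among 8 tested paralogs of the members, 0 were called in heterozygous cells (1 higher and 2 lower at an unadjusted p below 0.05, 0 by DESeq2), and *Lama2*, the laminin chain of muscle and mesenchyme, was called lower in homozygous cells at -1.07 (SE 0.186, adjusted p 0.000261). *Lama5*, the most abundant laminin alpha chain here, was at 0.08 in heterozygous cells (SE 0.056, adjusted p 0.496), *Lama3* at 0.10 (adjusted p 0.67) and *Lama4* at -0.38 (adjusted p 0.0696).

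The 12 basement membrane partners of *Lama1* were all tested and 0 were called in any comparison by edgeR or DESeq2, with 2, 6 and 2 higher and 1, 4 and 3 lower at an unadjusted p below 0.05 in the 3 comparisons in the order above. *Agrn* was at 0.11 (adjusted p 0.337) and *Hspg2* at 0.04 (adjusted p 0.821) in heterozygous cells.

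Markers of other cells that these cultures could hold moved with the genotypes. Of 30 fibroblast markers, 28 were tested and 17 were called lower in homozygous cells against wild-type (16 by DESeq2), with a median of -1.11 and a range of -1.42 to 0.20. The 17 were *Tnc*, *Thy1*, *Lox*, *Col6a1*, *S100a4*, *Pdgfrb*, *Cdh11*, *Prrx1*, *Col1a2*, *Col1a1*, *Col5a2*, *Ddr2*, *Acta2*, *Col6a2*, *Postn*, *Col6a3* and *Col3a1*, from -1.42 (*Tnc*) to -1.03 (*Col3a1*). *Fn1*, the most abundant marker, was at -0.62 (SE 0.0394, adjusted p 6.79e-10). In heterozygous cells edgeR and DESeq2 called 0, while 22 were lower at an adjusted p below 0.05 and 22 at an unadjusted p below 0.05, with a median of -0.49. Their summed level was 4190 and 4090 CPM in the wild-type pair, 3050 and 3030 in the heterozygous pair and 2260 and 2250 in the homozygous pair. *Col1a1*, the main fibroblast collagen, had 12477 and 10423, 7400 and 6989, and 3963 and 4460 counts in that order. Relative to the wild-type mean, the summed fibroblast markers were at 73.8% and 73.2% in heterozygous and at 54.7% and 54.3% in homozygous libraries. *Pdgfra* was at 78.3% and 97.9% and then at 45.3% and 48.8%, and *Dab2* at 98.9% and 101.0% and then at 70.9% and 72.7%. The part of feeder RNA in the levels of *Pdgfra* and *Dab2* was not tested. *Cubn* was at 243% and 246% in heterozygous and at 117% and 94.8% in homozygous libraries, and *Lrp2* at 106% and 113% and then at 150% and 136%.

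**Figure D4:**
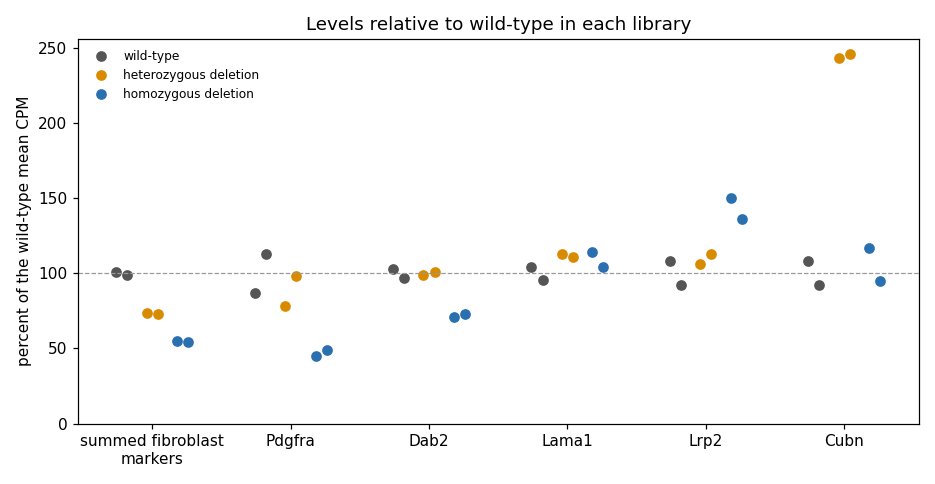
CPM in each library is plotted as a percent of the wild-type mean (axis from 0, dashed line at 100) for the summed fibroblast markers and 5 members, with a point for each library. The fibroblast markers and *Pdgfra* are lowest in homozygous libraries, at 54.7% and 54.3% and at 45.3% and 48.8%, while *Cubn* stands at 243% and 246% in heterozygous libraries.

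Trophoblast and pluripotency markers also differed. Of 11 trophoblast markers 9 were tested, and in heterozygous cells edgeR and DESeq2 called 0, with 6 higher at an unadjusted p below 0.05 and a median of 0.55. The simple keratins rose there, *Krt8* by 0.75 (SE 0.048, adjusted p 9.11e-09) and *Krt18* by 0.78 (SE 0.043, adjusted p 1.35e-09), while *Tfap2c* was at 0.04 (adjusted p 0.853), and these keratins are also made by primitive endoderm and other simple epithelia. The list summed to 561 and 568 CPM in the wild-type pair and was highest in the heterozygous pair, at 946 and 912. In the homozygous pair it summed to 738 and 685. Most of this sum was *Krt8* and *Krt18*, with means of 282 and 230 CPM in wild-type and 473 and 396 in heterozygous libraries. The sum therefore describes these keratins more than the list. The 12 pluripotency markers had a median of -0.16 in heterozygous cells, with 0 called, 5 lower at an adjusted p below 0.05 and 8 at an unadjusted p below 0.05, and 0 called by DESeq2. The most abundant were *Pou5f1* at -0.12 (adjusted p 0.152), *Sall4* at -0.07 (adjusted p 0.441) and *Sox2* at -0.19 (SE 0.0435, adjusted p 0.0142). Over the 12 markers, values there ran from -0.38 to 0.02. Between the deletions 0 of the 12 were called, while all 12 lay above 0. Of these 12 markers, 8 were higher at an adjusted p below 0.05, with a median of 0.17. Their summed level was lowest in heterozygous libraries, at 1930 and 1850 CPM against 2080 and 2100 in the wild-type pair and 2240 and 2120 in the homozygous pair. Among 4 tested markers of mesoderm and definitive endoderm, 0 were called in heterozygous cells by edgeR or DESeq2 (1 higher at an unadjusted p below 0.05), and *T*, the primitive streak factor, was called lower between the deletions at -1.15 (SE 0.17, adjusted p 4.04e-05). *Eomes* was at 0.05 (adjusted p 0.916) and *Mixl1* at 0.27 (adjusted p 0.795) in heterozygous cells against wild-type. The part of these differences in the levels of the 10 genes was not tested.

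Across the 6 libraries, the tested genes whose log2 CPM was most like that of *Cubn* were *Usp3* (Pearson's r 0.9936), *Nodal* (0.991), *Anxa3* (0.9898), *Tmem44* (0.9897) and *Nrk* (0.989). They were picked from 16951 genes over 6 points that fall into 3 genotypes, so values this close to 1 describe a shared pattern across genotypes. Their differences were smaller than that of *Cubn*: the log2 fold change in heterozygous cells was 0.17 for *Nodal*, the TGF-beta family ligand of the epiblast, 0.38 for the annexin *Anxa3* and 0.47 for *Nrk*, and none of the 5 was called. *Nodal* gave 1820 and 1533 reads in the wild-type pair of libraries, 1716 and 1821 in the heterozygous pair and 1416 and 1543 in the homozygous pair.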

How the data were processed

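Whole-number counts, not normalized, were deposited by the authors for 55385 genes in 6 libraries. The submitters' processing notes name Trimmomatic 0.39, STAR 2.6.1d, SAMtools 1.9, featureCounts 1.6.4, DESeq2 1.22.2 and the builds mm10 and GRCm38. The strand setting of the counting and the annotation release are not given in the sources used here, so reads of overlapping antisense genes may not be told apart. The libraries were made with the stranded KAPA mRNA Hyper Prep kit. The methods state biological triplicates, and the 2 labelled libraries of each genotype were used.

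The 16951 genes that reached 10 counts in 2 or more libraries were fitted with edgeR 4.0.16 in R 4.3.3, with TMM factors and the 6 libraries in a quasi-likelihood model of 3 genotypes. Benjamini-Hochberg adjustment ran over all tested genes. Each standard error (SE) is the absolute log2 fold change divided by the square root of the quasi-likelihood F statistic. DESeq2 gave wider ones in heterozygous cells against wild-type, with 0.29 against 0.176 for *Cubn* and 0.511 against 0.322 for *Gata6*. The fit was tested on simulated data. *Sox17* was fitted among all genes with a count. A floor of 3 counts per library was used, which covers counting error only. Between the libraries of a genotype, chi-square per degree of freedom over genes was 2.21, 2.30 and 3.38, so no library was taken as a repeat deposit. Positions and exon lengths came from GENCODE M21 (GRCm38), in which 55144 identifiers were found. Upstream sequences came from a table of RefSeq promoters (GRCm38), which held 5 of the 10 members. *Gata4*, *Gata6*, *Sox17*, *Sox7* and *Lama1* had no entry.

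The members and gene lists were chosen with earlier results of these data known. The text names all members, of each other list the genes past both thresholds and the 3 highest in wild-type cells, and the 5 tested genes most correlated with *Cubn* (log2 CPM, prior count 2). Other listed genes (*Cited1*, *Clcn5*, *Lrp1*, *Gipc1*, *Pdgfb*, *Foxa1*, *Snai1*, *Foxa2* and the visceral endoderm markers) and the counts of *Nodal* were singled out after their values were seen, and so were the CG counts. Alternatives were DESeq2 1.42.0, its size factors, total counts, other count minimums, only the genotypes compared, robust estimation, the replicate number as a block, no fold threshold and each replicate left out. Some listed genes are not reported here by name.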

Additional observations from a re-analysis of the deposited data

Results flagged for a closer look

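In the contrast of homozygous against heterozygous cells in the edgeR fit, which sets the effects of the deletion genotypes against each other, 4 genes of the members and lists lay past both thresholds. *Cubn* was at -1.21 on the log2 scale, higher in heterozygous than in wild-type cells and near wild-type in homozygous cells. *Gata6* was at -1.03 and was not called by DESeq2. *Twist2*, a fibroblast marker counted 23 and 25 times in wild-type cells, 30 and 26 times with the heterozygous deletion and 9 and 13 times with the homozygous deletion, was at -1.27 (SE 0.36, adjusted p 0.0136) and was not called by DESeq2. *T*, which drew 112 and 87 reads from wild-type cells, 112 and 141 from heterozygous cells and 51 and 57 from homozygous cells, was at -1.15 (SE 0.17, adjusted p 4.04e-05). *Cubn* and *Gata6* are members chosen on these counts, so their values are a description and not a test. No group held enough libraries to look for single outlying samples.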

How the results depend on the processing

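In heterozygous cells against wild-type, *Cubn* was the 1 member called under every alternative run, with a log2 fold change between 1.18 and 1.40. In homozygous cells against wild-type, the 1 called member became 3 without a fold threshold and ranged from 0 to 1 with a replicate left out (0 without wild-type replicate 2). Between the deletions, the 2 called members became 1 with at least 30 counts, 1 with DESeq2 (in both *Gata6* was lost) and 5 without a fold threshold, and ranged from 1 to 3 with a replicate left out, *Pdgfra* being added without heterozygous replicate 1. For the other extraembryonic endoderm genes, 0 called in heterozygous cells became 1 with no count minimum and 1 with only the genotypes compared, and 2 without a fold threshold. Between the deletions 0 became 1 with total counts only (*Foxa1*) and 10 without a fold threshold, and ranged from 0 to 1 with a replicate left out (*Fst* without homozygous replicate 1). In homozygous cells against wild-type 2 became 1 with DESeq2 and 1 with its size factors (*Thbd* left), 4 with no minimum (*Foxa2* among those added) and 11 without a fold threshold, and ranged from 1 to 3 with a replicate left out, with *Thbd* alone left without homozygous replicate 2 and 3 without wild-type replicate 1 or homozygous replicate 1 (*Snai1* added in the latter). The causes were not tested. No called value changed sign. Of the member values that were not called, in homozygous cells against wild-type *Gata4* went from 0.26 to -0.02 without homozygous replicate 2, *Gata6* from -0.12 to 0.25 without wild-type replicate 1, *Amn* from -0.04 to 0.18 without wild-type replicate 2 and 0.03 without homozygous replicate 2, and *Cubn* from 0.07 to -0.02 without wild-type replicate 2 and -0.08 without homozygous replicate 1. *Pdgfra* in heterozygous cells went from -0.17 to 0.02 without wild-type replicate 2, and *Lama1* between the deletions from -0.05 to 0.02 without homozygous replicate 2. Over all tested genes, 7 higher and 21 lower in heterozygous cells became 3 and 9 with DESeq2, 15 and 34 with no count minimum, and 2 to 14 and 11 to 28 with a replicate left out. In homozygous cells 46 and 316 became 15 and 197 with DESeq2, 17 and 243 with at least 30 counts, 72 and 372 with no minimum, and 30 to 49 and 244 to 372 with a replicate left out. Between the deletions 84 and 152 became 27 and 38 with DESeq2, 42 and 75 with at least 30 counts, and 68 to 90 and 102 to 297 with a replicate left out.

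With the replicate number as a block, members called were 1, 1 and 2, and *Cubn* was at 1.29 in heterozygous cells. Same-numbered libraries did not deviate together (correlations across genes of 0.0261, -0.0944 and 0.00865), so the numbers were not taken as pairs. Depth limits *Sox17*, *Gata6*, *Sox7* and *Amn*, which had at most 42 counts in a library.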
